A study of Mus musculus with 48 samples.

Results

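Nociceptors of mice with Tsc2 deleted in these neurons were compared with nociceptors of control mice 3 days after the sciatic nerve had been crushed. The comparison used the 12 libraries of crushed conditional knockout (cKO) neurons and the 12 libraries of crushed control neurons among 48 libraries in all. Aliquots A, B and C of an animal are technical replicates of about 100 sorted cells each, so their counts were summed, which gave 4 crush cKO and 4 crush control samples of 16 in all. The cKO mice carried Nav1.8-Cre, a floxed and a null Tsc2 allele (Tsc2 flox/null) and Rosa26-ZsGreen. The control mice carried Nav1.8-Cre, a floxed and a wild-type allele (Tsc2 flox/+) and Rosa26-ZsGreen. Both groups had the same Cre, reporter, crush and age (8-9 weeks), a mixed C57BL/6 and AJ background, and 2 males (animals 1 and 2) and 2 females (animals 3 and 4). Neurons came from the L4 dorsal root ganglion on the crushed side and were sorted by the reporter. The Nav1.8 (Scn10a) driver restricts recombination to Nav1.8-lineage neurons. Control neurons of that lineage therefore lost 1 Tsc2 copy, and every other cell of a cKO mouse also carried the null allele.

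Tsc2 encodes tuberin, which acts with hamartin (Tsc1) as the GTPase-activating protein for Rheb and so restrains the kinase complex mTORC1. Active mTORC1 promotes protein and lipid synthesis and mitochondrial metabolism and, in many cells, holds the lysosomal transcription factor TFEB in the cytoplasm. After a peripheral nerve crush, sensory neurons reactivate a growth programme in which mTORC1 takes part. Nociceptors are classed as peptidergic, which make CGRP and substance P, as non-peptidergic, and as C-fibre low-threshold mechanoreceptors.

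Gene counts ran to between 5159353 and 25627824 per library (24 libraries, median 16479272) and to between 36773198 and 63365268 per summed sample. Levels are given in CPM (counts scaled to the TMM-adjusted library total) per animal, in the order of animals 1 to 4, or as mean ± SD (n = 4). Log2 changes are crush cKO minus crush control, ± SE, and the words rose and fell are kept for genes with an adjusted p under 0.05, from the quasi-likelihood test of edgeR with Benjamini-Hochberg correction across 19048 genes. CPM are not corrected for gene length, so they were compared between animals and not between genes. Principal component analysis of the 8 samples separated the genotypes along the first component (27.2% of the variance), while crush cKO animals 3 and 4 lay at opposite ends of the second (15.5%). Aliquot 3C of the crush cKO group had the fewest genes detected (15493). Aliquot 4C of that group had the fewest counts (5159353) and the largest share of reads outside genes (19.4%). Named genes and lists whose call or count ended without these aliquots are given without them as well.

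Tsc2 (ENSMUSG00000002496; chromosome 17, 24595816 to 24632630, minus strand, mm10) had 8.18, 11.6, 5.83 and 7.58 CPM in crush cKO animals, against 28.4, 23.5, 20.5 and 20.4 CPM in crush control animals. Every crush cKO animal was below every crush control animal. The log2 change was -1.48 ± 0.23 (adjusted p = 0.00106), and an exact permutation test (two-sided) had p = 0.0286, the smallest that 4 against 4 animals allow. The count covers the whole gene, so the remaining reads do not measure intact transcript. Neuronal genes that mark the sorted population were abundant in both groups. Scn10a, the sodium channel gene behind the Cre driver, had 266 ± 63.7 CPM in crush cKO and 352 ± 60.4 CPM in crush control animals, and Prph, the intermediate filament gene of small sensory neurons, had 1332 ± 176 CPM in crush cKO and 1002 ± 135 CPM in crush control animals. Neither passed the test (adjusted p = 0.187 and 0.122). Of 17 tested nociceptor identity genes 1 fell (5.88%, against 3.21% of all genes tested) and 0 rose, with a median log2 change of -0.26. The 1 that fell was Calca (-1.22, the lowest of the list), and 6 of the 17 lay above 0. The sum of the list was lower in every crush cKO animal (21679.6 to 24573.5 CPM) than in every crush control animal (24626.4 to 28988.5 CPM). That sum weighs abundant members most and includes Calca, so it does not show that the members fell together. With DESeq2 5 of the 17 genes fell, and 0 to 3 did with 1 animal left out.

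Deletion changed 1256 genes after crush, 6.59% of those tested: 644 rose (3.38%) and 612 fell (3.21%). The rise was over 2-fold for 346 genes and the fall over 2-fold for 295. Values of the 4 crush cKO and 4 crush control animals did not overlap for 1133 of the 1256, whereas 2518 of all genes tested (13.2%) had no overlap. At an unadjusted p under 0.05 there were 3913 genes. The median log2 change of all genes tested was near 0. For 8724 genes (45.8%) the whole 95% interval of the log2 change lay within -1 to 1; for the others it reached beyond a 2-fold change.

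**Figure D1:**
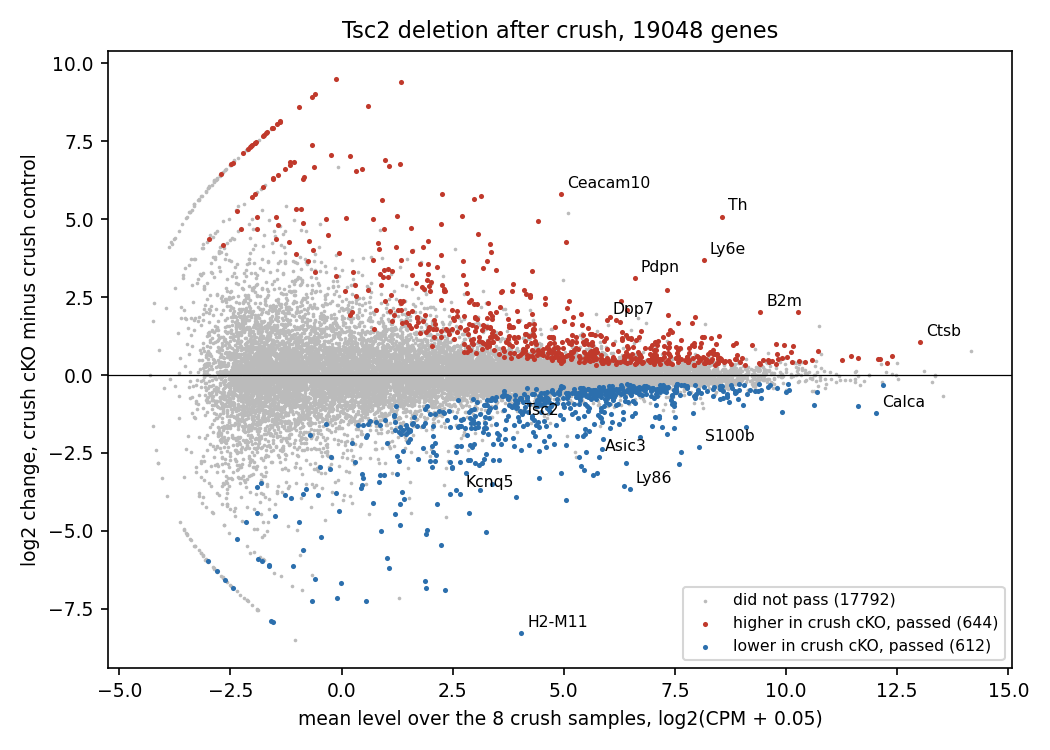
Log2 change (crush cKO minus crush control, vertical axis) against the mean level over the 8 crush samples (horizontal axis, log2 scale) for the 19048 genes tested. Red points are the 644 genes that rose, blue points the 612 that fell and grey points genes that did not pass. Changes past 2-fold occur from low to high levels, and Ctsb and Calca are labelled at the high end.

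A large share of the lysosomal genes rose. Of 41 tested genes of lysosomal enzymes, membrane proteins, proton pump subunits and other TFEB targets, 20 rose and 1 fell, and the median log2 change was 0.44. These are 48.8% and 2.44%, against 3.38% and 3.21% of all genes. The proton pump subunit Atp6v0c, which is not in the list, fell (log2 change -2.29). It is described with chromosome 17, where a near-identical copy makes its value uncertain. Ctsb, a lysosomal cysteine protease (ENSMUSG00000021939; chromosome 14, 63122462 to 63145923, plus strand), had 9660.1, 11549.7, 11024 and 12392 CPM in crush cKO animals, against 4756, 6040.4, 5064 and 5691 CPM in crush control animals. The lowest crush cKO value exceeded the highest control value, and the log2 change was 1.05 ± 0.09 (adjusted p = 1.43e-05). Npc2, the cholesterol carrier of the lysosomal lumen, had 433, 508, 464 and 618 CPM in crush cKO animals, against 207, 199, 194 and 251 CPM in crush control animals. The groups were again fully apart (log2 change 1.25 ± 0.12, adjusted p = 1.69e-05). Ctsa, protective protein/cathepsin A, rose by 1.02 ± 0.12 and Gla, alpha-galactosidase A, by 1.14 ± 0.16 on the log2 scale, without overlap.

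Further rises in the list were the sialidase gene Neu1 (0.86), the saposin precursor Psap (0.42), the membrane glycoprotein Lamp1 (0.60), the beta-hexosaminidase subunit Hexa (0.75), the cathepsins Ctsz (0.61) and Ctsd (0.47), and the tripeptidyl peptidase Tpp1 (0.58). The rises also took in the calcium channel Mcoln1 (0.64), the folliculin partners Fnip1 (0.79) and Fnip2 (0.75), and the proton pump subunits Atp6v0d1 (0.42), Atp6v1b2 (0.31) and Atp6v1h (0.36). Gpnmb, a transmembrane glycoprotein induced by lysosomal stress in other cells, had the largest rise of the list (log2 change 2.15 ± 0.57, adjusted p = 0.0318). Gabarapl1, an autophagosome protein gene, fell by 0.33 on the log2 scale. Dpp7, a vesicular dipeptidyl peptidase outside the list, had 111, 97.2, 97.4 and 80.5 CPM in crush cKO animals, against 23, 30.8, 29.5 and 29.6 CPM in crush control animals. It had one of the 5 smallest p of all rises (log2 change 1.77 ± 0.13, adjusted p = 3.24e-06). Gabarapl1 lost its call without crush cKO animal 1 or 3 or crush control animal 3 or 4, which left 0 falls. The count of rises was 11 without crush control animal 3, 13 without crush cKO animal 4. Its median stayed between 0.41 and 0.50 over the 8 leave-outs.

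Tfeb itself was near the detection limit at 0.22 ± 0.0826 CPM in crush cKO and 0.278 ± 0.266 CPM in crush control animals (adjusted p = 0.891). TFEB binds the CLEAR element, whose core was searched as TCACGTGA on both strands of the RefSeq promoter windows (250 bases before to 50 after the start, GRCm38.p6), with CACGTG, the E-box within it, as a second motif. A window was matched by symbol for 12624 of the 19048 genes, among them 929 of the 1256 changed ones. TCACGTGA was present in 14 of 480 windows of genes that rose (2.92%), in 2 of 449 of genes that fell (0.445%) and in 218 of all 12624 (1.73%). Of 17 lysosomal genes that rose and had a window, 4 held it (23.5%), against 5 of 33 windows of the whole lysosomal list (15.2%). These stretches are shown because their genes rose and they carry the element; they run 5′ to 3′ on the gene's strand, with the motif in capitals.
Gla: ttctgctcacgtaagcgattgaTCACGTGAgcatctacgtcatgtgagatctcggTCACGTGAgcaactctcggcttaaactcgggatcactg
Atp6v0d1: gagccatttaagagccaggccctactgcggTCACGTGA
Ctsd: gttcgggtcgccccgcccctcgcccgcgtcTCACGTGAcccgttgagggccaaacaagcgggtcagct
Mcoln1: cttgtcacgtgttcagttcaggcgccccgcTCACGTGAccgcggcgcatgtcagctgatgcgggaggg
The Gla stretch lies at chrX:134601163-134601255, minus strand, and holds 2 copies. That of Atp6v0d1 lies at chr8:105566061-105566098, minus strand, and its motif spans the start site, beginning 4 bases before it. Those of Ctsd (chr7:142387889-142387956, minus strand) and Mcoln1 (chr8:3500443-3500510, plus strand) begin their motif 99 and 46 bases before the start. CACGTG, which every TCACGTGA also holds, was found in 78 of 480 windows of genes that rose (16.2%), in 22 of 449 of genes that fell (4.9%) and in 1207 of all windows (9.56%). In the lysosomal list, CACGTG was in 6 of 17 windows of genes that rose (35.3%) and in 12 of all 33 (36.4%). A match describes letters and shows no binding.

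**Figure D2:**
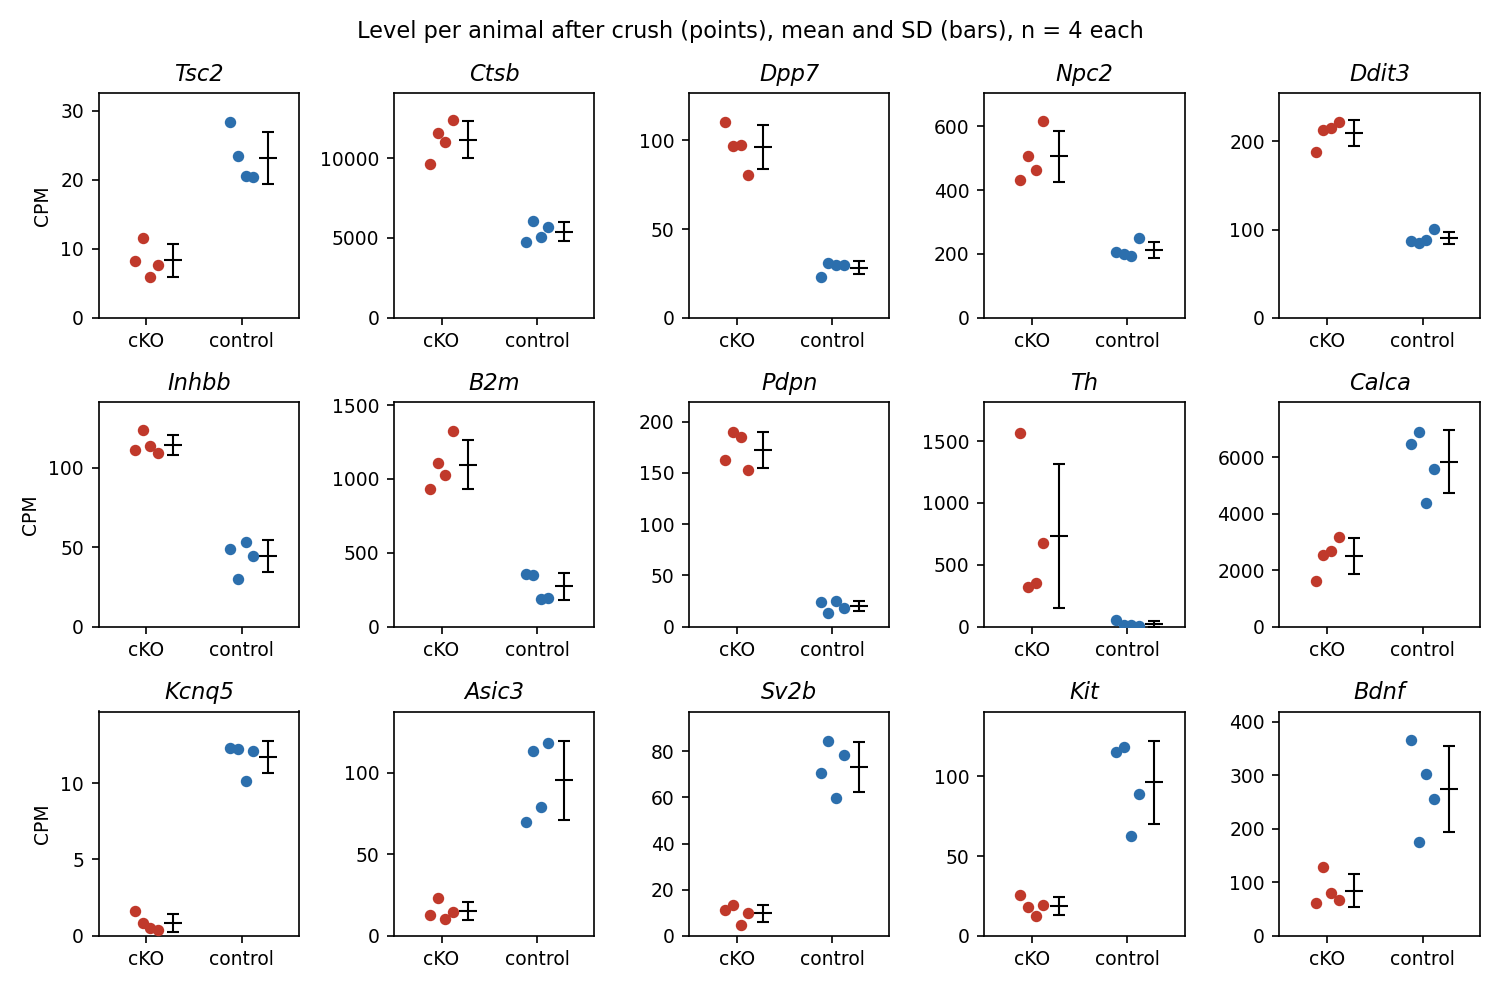
Level in CPM (vertical axes, starting at 0) of 15 genes in each crush cKO animal (red, left) and each crush control animal (blue, right). Points are animals and bars the mean and SD (n = 4 each). For none of the 15 do the red and blue points overlap, and Th spans 324 to 1568 CPM among crush cKO animals.

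Genes of the respiratory chain also moved upwards, by smaller amounts. Of 73 nuclear-encoded oxidative phosphorylation genes 17 rose (23.3%, against 3.38% of all genes) and 0 fell. The median log2 change was 0.29, and 68 of the 73 lay above 0. Cox4i1, a subunit of cytochrome c oxidase, had 764, 881, 1052 and 921 CPM in crush cKO animals, against 611, 651, 636 and 676 CPM in crush control animals. Crush cKO values were all higher (log2 change 0.49 ± 0.08, adjusted p = 0.002). Rises also included the ATP synthase subunits Atp5g3 (0.53) and Atp5b (0.45), the complex III subunit Uqcr10 (0.67) and the complex I subunit Ndufb9 (0.45). The count of rises was 8 without crush cKO animal 4 or crush control animal 1, 9 without crush cKO animal 3 or crush control animal 4, 28 without crush cKO animal 1.

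Of 13 listed genes of the mitochondrial genome only 7 were tested, so the others have no result here. Of these 7, 6 rose (85.7%, against 3.38% of all genes), with a median of 0.53. The complex I gene mt-Nd2 had 622, 585, 609.7 and 637 CPM in crush cKO animals, against 348, 476, 427 and 438 CPM in crush control animals (log2 change 0.54 ± 0.12, adjusted p = 0.015). Mitochondrial transcripts took 1.05 to 2.83% of gene counts in crush cKO libraries (median 1.91%) and 0.892 to 1.99% in crush control libraries (median 1.38%). Without aliquots 3C and 4C 2 of the 7 rose, mt-Nd2 (0.46, adjusted p = 0.0411) and mt-Nd6 (0.48, adjusted p = 0.0442), and the median was 0.46. Leaving out single animals gave 1 to 7 rises: 1 without crush control animal 1, 3 or 4, 2 without crush cKO animal 1 or 2, 3 without crush cKO animal 4. Leaving out an animal ended the calls of mt-Nd6 (adjusted p = 0.0502 to 0.0729 without crush cKO animal 1, 2 or 4 or crush control animal 1, 3 or 4).

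Of metabolic lists, glycolysis and hypoxia-inducible genes rose in 3 of 31 cases (9.68%, against 3.38% of all genes) and fell in 0 (median 0.20). These were the glucose transporter Slc2a1 (log2 change 0.91 ± 0.14, adjusted p = 0.00114), phosphoglycerate kinase Pgk1 (0.50) and the transcription factor Hif1a (0.57), each without overlap between groups. Among 33 genes of sterol and fatty acid synthesis 4 rose and 2 fell (median 0.09). These are 12.1% and 6.06%, against 3.38% and 3.21% of all genes. Hsd17b7, a cholesterol synthesis enzyme, rose by 0.99 ± 0.22 and Insig1, the sterol-responsive anchor of SREBP, by 0.86 ± 0.20. The synthesis enzymes Fdft1 (-0.30) and Pmvk (-0.30) fell. All 10 pentose phosphate and NADPH genes missed the threshold, which 6.59% of all genes passed. Taldo1 had 529 ± 36 CPM in crush cKO and 584 ± 47.4 CPM in crush control animals. Idh1 had 590.0 ± 30.1 CPM in crush cKO and 522 ± 42.7 CPM in crush control animals. The log2 change of Taldo1, a pentose phosphate enzyme, was -0.14 after crush and 0.49 without injury (difference -0.64, adjusted p = 0.00683). With 1 animal left out, the threshold was no longer met by Fdft1 (adjusted p = 0.0549 to 0.134 without crush cKO animal 1, 2, 3 or 4 or crush control animal 2) and Pmvk (adjusted p = 0.0522 to 0.116 without crush cKO animal 1, 2, 3 or 4 or crush control animal 1, 2, 3 or 4).

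Of the genes of the ATF4 stress and amino acid response, a minority rose. Ddit3, the transcription factor CHOP, had 188, 213, 215 and 222 CPM in crush cKO animals, against 87, 84.9, 87.9 and 100.1 CPM in crush control animals. No values overlapped (log2 change 1.22 ± 0.11, adjusted p = 1.45e-05). Phgdh, the first enzyme of serine synthesis, had 26.5, 28.6, 17.4 and 24.4 CPM in crush cKO animals, against 7.37, 6.99, 5.84 and 8.63 CPM in crush control animals (log2 change 1.75 ± 0.24, adjusted p = 0.000509), and Psat1, of the same pathway, rose by 0.49 ± 0.10. Of 45 tested ATF4-list genes these 3 and Gdf15 rose (8.89%, against 3.38% of all genes) and 0 fell (median 0.31, with 39 above 0). Gdf15, a stress cytokine gene, was at 0 in crush control animals 1, 2 and 3, so no fold is given; it had 0.187, 0.605, 0.913 and 0.699 CPM in crush cKO animals, against 0, 0, 0 and 0.0667 CPM in crush control animals (adjusted p = 0.0338). Chac1 had 72.8 ± 2.82 CPM in crush cKO and 54.6 ± 18.6 CPM in crush control animals and Atf4 291 ± 13.5 CPM in crush cKO and 257 ± 40.7 CPM in crush control animals, and neither passed (adjusted p = 0.368 and 0.404). With DESeq2, or without aliquots 3C and 4C, 10 of the list rose. The motif TGATGNAA, a form of the CARE element that ATF4 and CHOP bind, was found in 12 of 36 promoter windows of the list (33.3%), against 310 of 12624 (2.46%) in all, and in 0 of 4 windows of the members that rose. Single animals decided the calls of Gdf15 (adjusted p = 0.0638 to 0.0871 without crush cKO animal 2, 3 or 4 or crush control animal 1, 2 or 3).

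Growth-programme genes moved both ways after crush. Of 43 tested regeneration-associated genes 5 rose and 4 fell, with a median of 0.05. These are 11.6% and 9.30%, against 3.38% and 3.21% of all genes. Inhbb, the activin beta-B subunit, had 111, 124, 114 and 109 CPM in crush cKO animals, against 49.1, 30.3, 53.6 and 44.7 CPM in crush control animals. The groups were apart (log2 change 1.37 ± 0.18, adjusted p = 0.000291). Ecel1, a damage-induced endopeptidase gene, had 361, 399.6, 293 and 376 CPM in crush cKO animals, against 174, 69.7, 103 and 102 CPM in crush control animals (log2 change 1.67 ± 0.28, adjusted p = 0.00201). Cckbr, the cholecystokinin B receptor, had 107, 116, 129 and 98.4 CPM in crush cKO animals, against 86.3, 40.7, 52.9 and 56.9 CPM in crush control animals (log2 change 0.93 ± 0.17, adjusted p = 0.00443). The hyaluronan receptor Cd44 also rose (0.73). Bdnf, the neurotrophin, had 60.8, 129, 79.4 and 66.7 CPM in crush cKO animals, against 366, 175, 302 and 255 CPM in crush control animals. All crush cKO values were lower (log2 change -1.71 ± 0.36, adjusted p = 0.00987). Among 27 secreted signals, Inhbb, Ucn and Gdf15 rose and Bdnf, Npy and Sst fell. This is 11.1% each way, against 3.38% and 3.21% of all genes. Anxa2, an annexin gene, fell by 0.33 and Flrt3, an adhesion gene, by 0.47 on the log2 scale.

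Npy, the neuropeptide Y gene, fell by 3.55 ± 0.79 on the log2 scale (adjusted p = 0.0126), though its groups overlapped. It had 14, 21.9, 8.84 and 6.56 CPM in crush cKO animals, against 152, 7.57, 88.7 and 357 CPM in crush control animals. Crush control animal 2 lay below 3 of the crush cKO animals. Of the standard injury markers, 4 abundant ones did not pass. Atf3, the injury-induced transcription factor, had 1095 ± 220.1 CPM in crush cKO and 1132 ± 132 CPM in crush control animals (adjusted p = 0.938). Gap43, the growth cone protein, had 3697 ± 598 CPM in crush cKO and 3720.1 ± 359.9 CPM in crush control animals (adjusted p = 0.99). Sprr1a had 1498 ± 311 CPM in crush cKO and 1119.6 ± 359 CPM in crush control animals (adjusted p = 0.263), and Sox11, a transcription factor of axon growth, 2107 ± 294 CPM in crush cKO and 1959.6 ± 121 CPM in crush control animals (adjusted p = 0.796). For these 4 the 95% interval of the log2 change lay within -1 to 1.

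The same deletion was also measured in uninjured neurons. Samples of the uninjured side share the animal numbers with the crushed side and may come from the same mice; no samples are shared. Uninjured deletion changed 3948 of the 19048 genes (20.7%). The test of the difference between sides passed for 335 genes (1.76%). Among the 43 regeneration-associated genes the difference passed for 21, and in all 21 the log2 change was lower after crush (median difference over the list -1.21). In the same list, 29 rose and 1 fell without injury. The list holds genes of the growth programme that crush reactivates, so a lower log2 change after crush is partly built into it. For Inhbb and Ecel1, crush control levels, given above, were far above those of uninjured control animals. Their crush cKO levels were also above those of uninjured cKO animals. Inhbb had 29.5 ± 5.05 CPM in uninjured cKO and 0.332 ± 0.101 CPM in uninjured control animals and Ecel1 257 ± 18.3 CPM in uninjured cKO and 1.61 ± 0.84 CPM in uninjured control animals; their log2 changes without injury were 6.47 and 7.31 (differences -5.11 and -5.64, adjusted p = 3.37e-08 and 1.13e-06). Cckbr (7.82, difference -6.90, adjusted p = 1.33e-09), Npy (4.90, difference -8.46, adjusted p = 0.00112) and Ucn, the urocortin gene (7.93 without injury, 3.37 after crush, adjusted p of the difference = 0.00484), also had a lower log2 change after crush. Differences passed for 5 of the 45 ATF4-list genes and 1 of the 41 lysosomal genes, Sqstm1, the autophagy receptor gene (0.48 after crush and 1.12 without injury, adjusted p = 0.0485). The Sqstm1 difference did not pass without crush cKO animal 1, 3 or 4 or crush control animal 1, 3 or 4 (adjusted p = 0.0594 to 0.107), nor without aliquots 3C and 4C (0.0609). With 1 animal left out, 19 to 22 of the regeneration-associated genes passed, and the change was lower after crush in each of them; 21 passed without aliquots 3C and 4C.

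**Figure D3:**
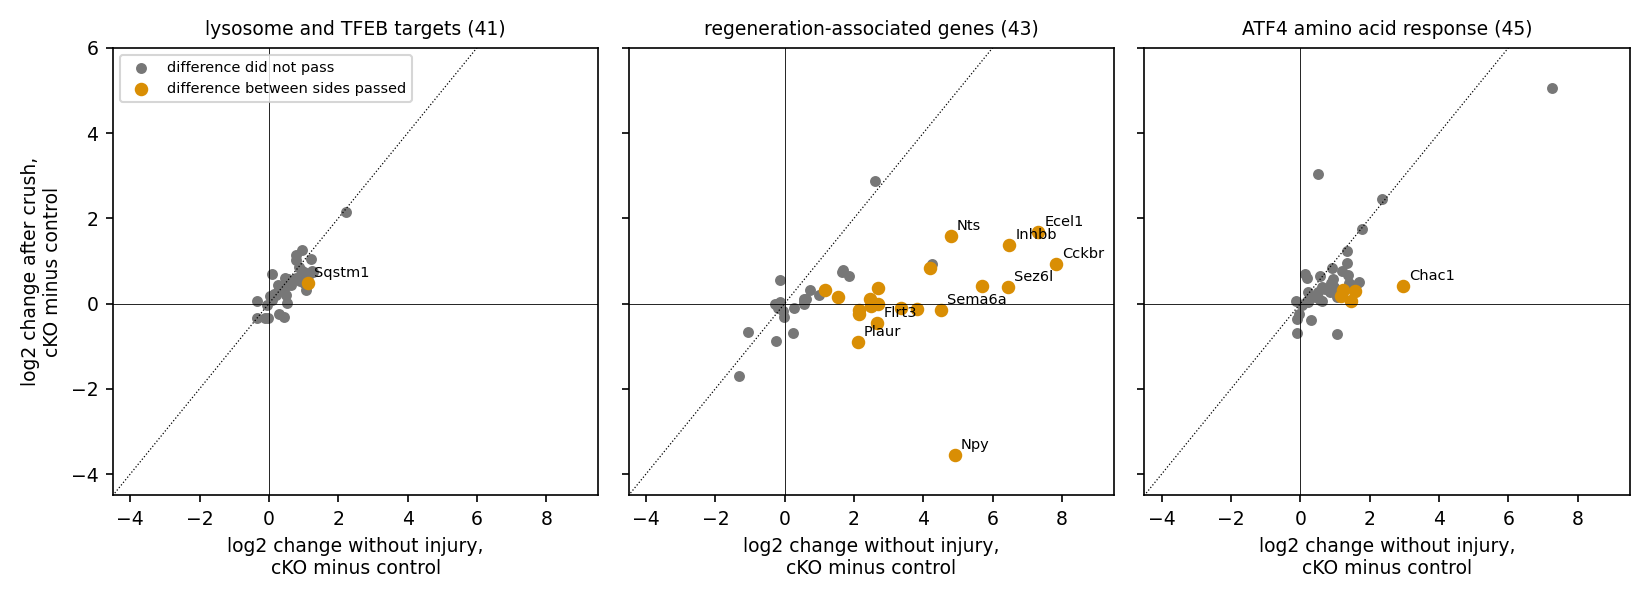
Log2 change by deletion after crush (vertical axis) against log2 change by deletion without injury (horizontal axis) for 3 gene lists. Orange points are genes whose difference between the sides passed, grey points the others, and the dotted line marks equal changes. The orange points, 21 of the 43 regeneration-associated genes but 1 of the 41 lysosomal and 5 of the 45 ATF4-list genes, lie below the line.

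Over all genes, 456 of the 644 rises after crush were also rises without injury (70.8% of the crush list, 20.4% of the uninjured list of 2230), and 0 were falls. Of the 612 falls, 450 were also falls without injury (73.5% and 26.2%) and 5 were rises. The remaining 345 genes passed only after crush. For 72 of the 1256 the difference between sides passed, including 12 rises with a larger and 9 falls with a more negative change after crush. P2ry1, a purinergic receptor gene, had 19.4, 10.2, 7.38 and 12.8 CPM in crush cKO animals, against 2.69, 4.41, 3.6 and 3.47 CPM in crush control animals and, without injury, 16.8 ± 10.6 CPM in uninjured cKO and 23.6 ± 8.37 CPM in uninjured control animals. Its difference was 2.30 (adjusted p = 0.0434), but without aliquots 3C and 4C the difference was 2.06 (adjusted p = 0.327) and the change after crush 1.57 (adjusted p = 0.157). The P2ry1 difference also did not pass with the replicate block (adjusted p = 0.0661), with sex as covariate (0.0507), with limma-voom (0.0946) or without crush cKO animal 1, 2 or 4 or crush control animal 1, 3 or 4 (adjusted p = 0.0595 to 0.0992). Bst2, an interferon-induced membrane protein, showed 15.8, 36.4, 15.4 and 38.5 CPM in crush cKO animals, against 14.6, 10, 6.82 and 4.43 CPM in crush control animals (difference 2.30, adjusted p = 0.0357). That difference did not pass without crush cKO animal 2 or 4 or crush control animal 3 or 4 (adjusted p = 0.0645 to 0.0814), nor with equal-weight aliquots (0.0626) or limma-voom (0.0921). Spink2, a serine protease inhibitor gene, had 19.7, 12.5, 20.3 and 19 CPM in crush cKO animals, against 1.29, 1.67, 0.655 and 2.05 CPM in crush control animals, and its change was 3.66 after crush and 1.34 without injury (adjusted p of the difference = 0.026). The Spink2 difference did not pass with limma-voom (adjusted p = 0.115), without aliquots 3C and 4C (0.167) or without crush cKO animal 1, 3 or 4 or crush control animal 1 (adjusted p = 0.0528 to 0.0622). The threshold was missed with 1 animal fewer by Bst2 (adjusted p = 0.0555 to 0.0688 without crush cKO animal 2 or 4 or crush control animal 3 or 4).

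Falls outnumbered rises among receptors and channels of nociceptor signalling. Of 36 tested opioid, amine and modulatory receptors 10 fell (27.8%, against 3.21% of all genes) and 2 rose, with a median of -0.55. Ptgir, the prostacyclin receptor, had 15.7, 25.8, 20.9 and 28.6 CPM in crush cKO animals, against 120.5, 107, 69.5 and 80.2 CPM in crush control animals. Crush cKO values were all below the control range (log2 change -2.05 ± 0.33, adjusted p = 0.00134). Agtr1b, an angiotensin receptor, had 1.75, 1.93, 1.14 and 1.56 CPM in crush cKO animals, against 15.9, 5.32, 15 and 7.85 CPM in crush control animals (log2 change -2.78 ± 0.43, adjusted p = 0.00103). Htr1b, a serotonin receptor that inhibits transmitter release, had 2.12, 6.34, 4.96 and 9.54 CPM in crush cKO animals, against 22.3, 23.3, 20.4 and 27.3 CPM in crush control animals (log2 change -2.02 ± 0.37, adjusted p = 0.00352). Oprk1, the kappa opioid receptor, had 0.0208, 0.0159, 0 and 0.0269 CPM in crush cKO animals, against 1.02, 4.98, 0.54 and 4.67 CPM in crush control animals (adjusted p = 0.00604); its crush cKO level rests on very few counts. The receptor genes Npy2r (-1.57), Htr2a (-1.76), Htr3b (-4.12), Galr1 (-4.80) and Chrm2 (-3.74) also fell, as did Htr3a, described further on. Gabbr1, a GABA-B subunit, rose by 0.43. Over the leave-outs 6 to 9 fell, with 6 without crush cKO animal 2 or 3. The rises were 1 without crush cKO animal 1, 2, 3 or 4 or crush control animal 1, 2 or 4, and 1 without aliquots 3C and 4C. Oprm1, the mu opioid receptor, had 4.9 ± 0.654 CPM in crush cKO and 6.63 ± 3.31 CPM in crush control animals (adjusted p = 0.532).

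Of 60 voltage-gated and transduction channels 6 fell (10%, against 3.21% of all genes), 0 rose and 54 did not pass. The median was -0.28, with 5 to 7 falls and 0 to 2 rises over leave-outs. Kcnq5, an M-type potassium channel subunit, had 1.64, 0.812, 0.494 and 0.349 CPM in crush cKO animals, against 12.3, 12.2, 10.1 and 12.1 CPM in crush control animals. The crush cKO range ended far below the control range (log2 change -3.81 ± 0.46, adjusted p = 0.000139). Asic3, the acid-sensing channel of muscle and skin afferents, had 12.4, 23.4, 10.5 and 14.7 CPM in crush cKO animals, against 69.9, 114, 79.2 and 119 CPM in crush control animals (log2 change -2.64 ± 0.31, adjusted p = 0.000127). Kcnb2, a delayed rectifier, had 53.5, 47.2, 46.3 and 51.3 CPM in crush cKO animals, against 76.3, 115, 102 and 88.8 CPM in crush control animals (log2 change -0.95 ± 0.11, adjusted p = 0.000102). The modulatory potassium subunit Kcns3 (-1.61), the sodium channel Scn8a (-1.30) and the potassium channel Kcna1 (-1.58) fell too. The heat and capsaicin receptor Trpv1, which did not pass, had 263 ± 77 CPM in crush cKO and 173 ± 55.1 CPM in crush control animals (adjusted p = 0.304), and Trpa1 had 13.1 ± 8.84 CPM in crush cKO and 38.6 ± 20.4 CPM in crush control animals (adjusted p = 0.0781).

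Among 32 presynaptic genes, 7 had lower and 3 higher levels past the threshold (median -0.21). These are 21.9% and 9.38%, against 3.21% and 3.38% of all genes. Sv2b, a synaptic vesicle glycoprotein, had 11, 13.3, 4.52 and 10.1 CPM in crush cKO animals, against 70.6, 84.5, 59.6 and 78.6 CPM in crush control animals. The ranges did not overlap (log2 change -2.91 ± 0.41, adjusted p = 0.000528). The complexin gene Cplx2 (-1.72), the calcium sensor Syt2 (-1.65) and the neurexin Nrxn3 (-1.19) fell, as did the release genes Unc13a and Stx1a. Syt4, a synaptotagmin gene, rose by 0.50 ± 0.10. Over the leave-outs 4 to 7 fell, with 4 without crush control animal 2. Among 40 axon cytoskeleton genes 6 fell and 3 rose (median -0.15), which is 15% and 7.5%, against 3.21% and 3.38% of all genes. Falls in that list were 3 without crush cKO animal 1 or 3 or crush control animal 1, 2 or 4, and rises were 1 without crush cKO animal 2 or 4 or crush control animal 1, 2 or 4. Mapt, which encodes tau, had 165, 188, 194 and 195 CPM in crush cKO animals, against 288, 342, 297 and 315 CPM in crush control animals (log2 change -0.74 ± 0.09, adjusted p = 0.000245), and Nefm, the medium neurofilament, fell by 0.78 ± 0.18. Marcksl1, an actin-binding growth protein, rose by 1.21 ± 0.22.

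Some peptidergic markers fell, and 4 markers of C-fibre low-threshold mechanoreceptors rose. In bulk samples, fewer cells of a subtype and less RNA per cell cannot be told apart. Of 14 peptidergic markers 4 fell (28.6%, against 3.21% of all genes) and 0 rose. Those that fell were Kit, Smr2, Calca and Prokr2. The median was -0.26, but 7 of the 14 lay above 0, with a highest log2 change of 2.90 that did not pass. Calca, which encodes CGRP, had 1611, 2545, 2696 and 3162 CPM in crush cKO animals, against 6466, 6905, 4371 and 5602 CPM in crush control animals. The groups did not overlap (log2 change -1.22 ± 0.29, adjusted p = 0.0164). Kit, the stem cell factor receptor, had 25.5, 18, 12.1 and 19.5 CPM in crush cKO animals, against 115, 119, 62.7 and 89.3 CPM in crush control animals (log2 change -2.36 ± 0.36, adjusted p = 0.000934). Smr2 had 0.0624, 0.111, 0 and 0.0538 CPM in crush cKO animals, against 25.4, 1.34, 0.636 and 1.76 CPM in crush control animals (adjusted p = 0.0037), and the value of crush control animal 1 stood far above the other 3. Summed over the list, peptidergic markers reached 21330.0 to 33779 CPM in crush cKO and 16657 to 28233 CPM in crush control animals, so the groups overlapped. Both ends of the range were higher in crush cKO animals, although the sum includes Calca, which fell. The list as a whole therefore did not fall. The median of 23 non-peptidergic and itch markers was -0.78, with 2 falls and 1 rise (8.70% and 4.35%, against 3.21% and 3.38% of all genes). Rarres1 rose (log2 change 2.32 ± 0.39, adjusted p = 0.00175). Mrgpra3 and Sst fell, but each rests on few animals. Sst had 0.0208, 0.366, 0.247 and 0.161 CPM in crush cKO animals, against 0.916, 0.401, 34.6 and 0.267 CPM in crush control animals. Mrgpra3 had 0.0416, 0.191, 0 and 0.0538 CPM in crush cKO animals, against 0.155, 0.0668, 7.94 and 31 CPM in crush control animals, with 2 of the 4 crush control animals near 0. The threshold was missed with 1 animal fewer by Calca (adjusted p = 0.0503 to 0.0527 without crush cKO animal 1 or crush control animal 2), Mrgpra3 (adjusted p = 0.0568 to 0.113 without crush cKO animal 1, 2, 3 or 4 or crush control animal 3 or 4) and Prokr2 (adjusted p = 0.0525 to 0.0537 without crush cKO animal 1 or 2). The same held for Sst (adjusted p = 0.0643 to 0.385 without crush cKO animal 1, 2, 3 or 4 or crush control animal 3).

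Of the 7 C-fibre low-threshold markers 4 rose (57.1%, against 3.38% of all genes). Th, tyrosine hydroxylase, had 1568, 324, 351 and 679 CPM in crush cKO animals, against 55.3, 12.3, 11.4 and 6.9 CPM in crush control animals. All crush cKO values lay above the highest control value, and the change was 5.08 ± 0.97 (adjusted p = 0.00465). P2ry1, Slc17a8 and Zfp521 rose as well (log2 changes 1.82, 2.96 and 1.49). Without aliquots 3C and 4C these 3 did not pass (adjusted p = 0.157, 0.198 and 0.0894), while Th did (4.97, adjusted p = 0.0155). In that fit Th was the list's 1 rise and 1 other member fell. With DESeq2 5 members rose and 1 fell, and with 1 animal left out 2 to 3 rose and 0 to 1 fell. Piezo2, the mechanically gated channel these neurons also express, did not pass, at 95 ± 53.2 CPM in crush cKO and 206 ± 34.4 CPM in crush control animals (adjusted p = 0.0655). Summed markers of the list reached 663 to 2008 CPM in crush cKO and 272 to 418 CPM in crush control animals. Leaving out an animal ended the calls of Slc17a8 (adjusted p = 0.0538 to 0.0609 without crush cKO animal 3 or crush control animal 2 or 4) and Zfp521 (adjusted p = 0.0556 to 0.121 without crush cKO animal 1, 2 or 4 or crush control animal 1, 2, 3 or 4).

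**Figure D4:**
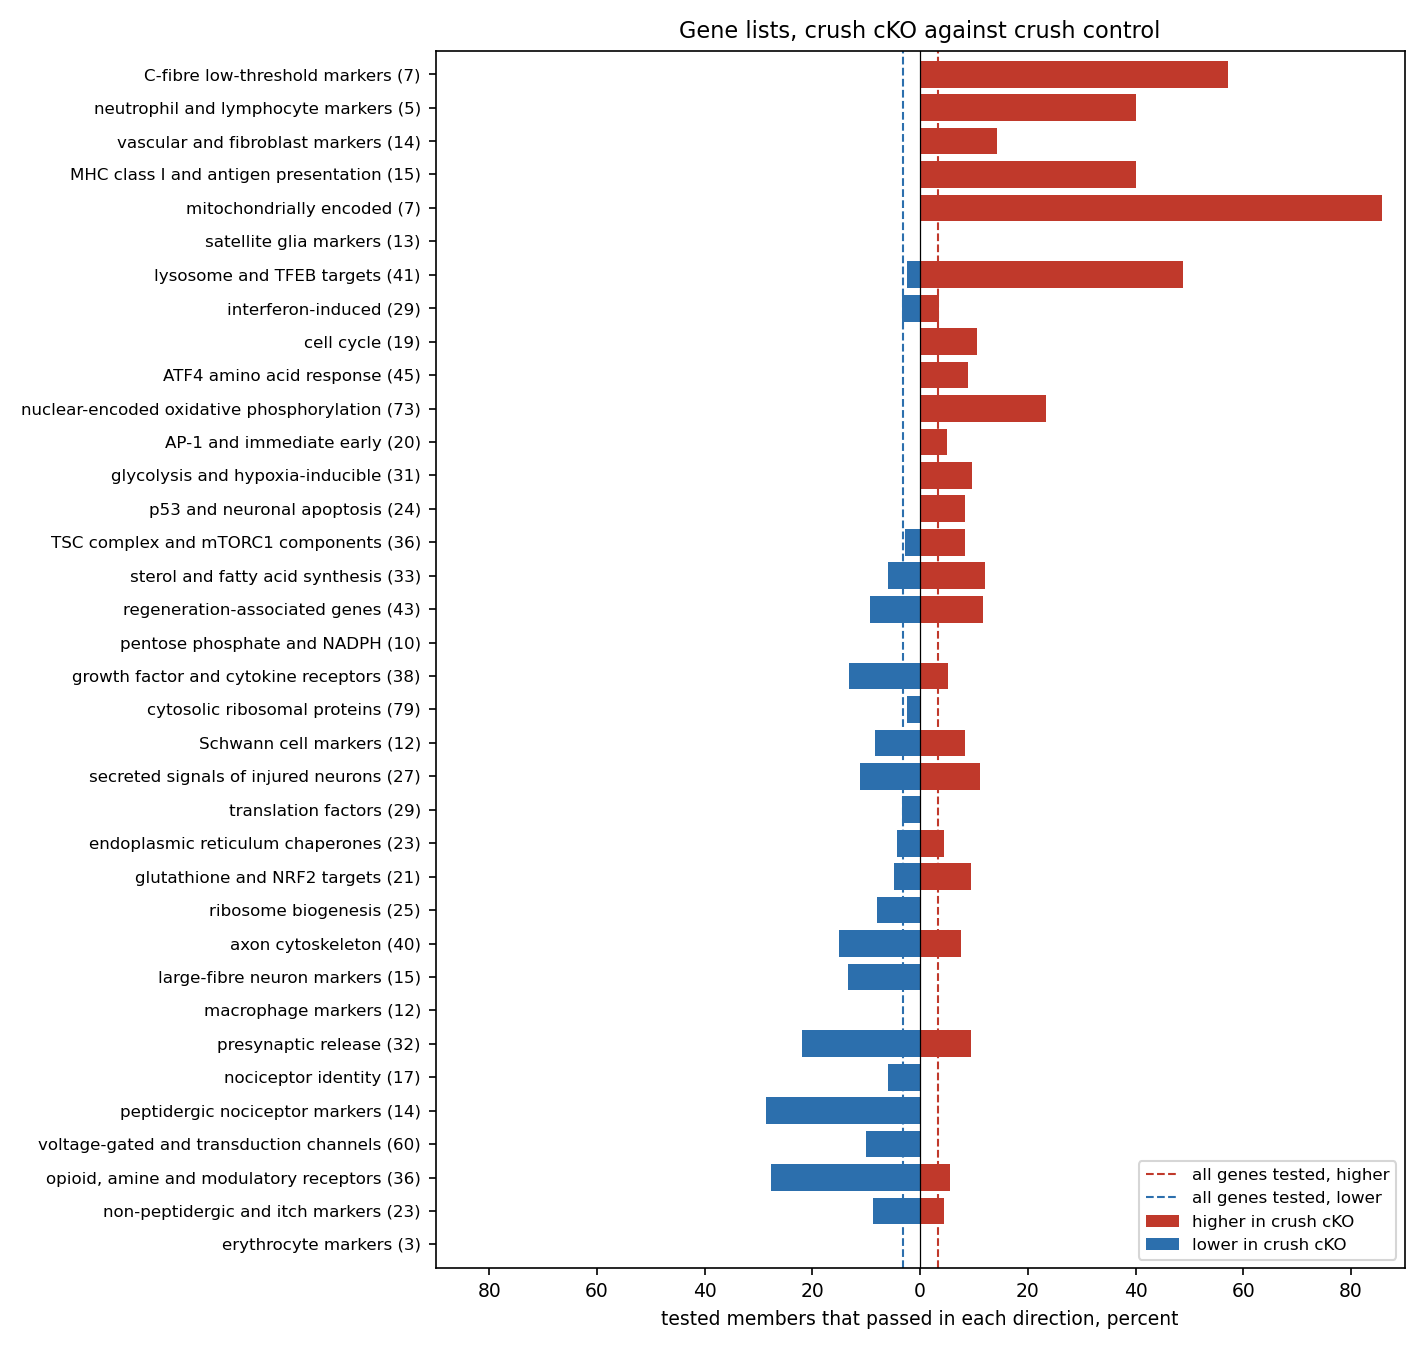
Percent of tested members of each of 36 gene lists that rose (red, right of 0) or fell (blue, left of 0) in crush cKO against crush control animals, ordered by the list's median change, with the number tested in brackets. Dashed lines are the shares of all 19048 genes (3.38% rose and 3.21% fell). Lysosomal (48.8%) and mitochondrially encoded (85.7%) lists reach far above the line for rises, and modulatory receptors (27.8%) and peptidergic markers (28.6%) far beyond that for falls. The mitochondrially encoded share covers 7 tested of 13 listed genes.

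MHC class I genes rose in 6 of 15 tested cases (40%, against 3.38% of all genes) and fell in 0 (median 0.87). Over leave-outs there were 6 to 8 rises, and 1 fall without crush control animal 4. Outside the list, 2 H2 genes of chromosome 17 fell, H2-M11, described further on, and H2-T24 (log2 change -3.70 ± 0.84, adjusted p = 0.0139), whose groups overlapped. B2m, the invariant light chain on chromosome 2, had 933, 1107, 1027 and 1322 CPM in crush cKO animals, against 359, 348, 189 and 191 CPM in crush control animals. Values were at least 2-fold apart between the groups (log2 change 2.01 ± 0.21, adjusted p = 5.62e-05). H2-D1, a classical heavy chain, had 479, 438, 435 and 426 CPM in crush cKO animals, against 277, 187, 159.6 and 155 CPM in crush control animals (log2 change 1.19 ± 0.19, adjusted p = 0.00134). H2-K1 rose by 1.21 although crush control animal 1 overlapped crush cKO animal 3, and H2-Q4, H2-Q6 and H2-Q7, from the Qa region, rose by 3.14, 4.10 and 3.36. H2 genes resemble each other in sequence, and reads that fit several places were not counted, so the level of each H2 gene is uncertain. They also lie on chromosome 17, as Tsc2 does. For them the Tsc2 genotype and an inherited chromosome segment cannot be told apart. Summed vascular and fibroblast markers, whose cells carry MHC class I, were 170 to 449 CPM in crush cKO and 51.8 to 111 CPM in crush control animals. Of the 14 tested, 2 rose (14.3%, against 3.38% of all genes), Flt1 and Acta2, and 12 lay above 0 (median 1.15). With DESeq2 5 of the list rose. The endothelial genes Pecam1 and Cldn5 were at or near 0, which does not describe the fibroblast markers. Pecam1 had 0.0797 ± 0.038 CPM in crush cKO and 0.369 ± 0.334 CPM in crush control animals. Cldn5 was at 0 in 3 of 4 crush cKO and 3 of 4 crush control animals. Summed macrophage markers were 18.0 to 38.4 CPM in crush cKO and 12.1 to 80.6 CPM in crush control animals, with 0 of 12 changed, against 6.59% of all genes. Interferon-induced genes split 1 up and 1 down among 29 (median 0.41), which is 3.45% each, near the 3.38% and 3.21% of all genes. Ifi27 fell (log2 change -0.59 ± 0.12, adjusted p = 0.00666) and Bst2 rose as given above. The part of non-neuronal cells in the MHC class I change was not tested. Single animals decided the calls of H2-M11 (adjusted p = 0.0502 to 0.0542 without crush cKO animal 1, 3 or 4 or crush control animal 2).

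Other genes with the largest rises or the smallest p lay outside the lists. Those described had a mean of at least 5 CPM over the 8 samples and no overlap. Ly6e had 284, 552, 564 and 701 CPM in crush cKO animals, against 62.5, 35.5, 31.6 and 32.6 CPM in crush control animals. Crush control animal 1 lay above the other controls but below every crush cKO animal (log2 change 3.69 ± 0.37, adjusted p = 3.58e-05). Pdpn, podoplanin, had 163, 189, 185 and 153 CPM in crush cKO animals, against 24.2, 13.7, 24.6 and 17.9 CPM in crush control animals and one of the smallest p (log2 change 3.10 ± 0.24, adjusted p = 3.3e-06). Anxa3, annexin A3, had 23, 48.8, 75.3 and 103 CPM in crush cKO animals, against 2.27, 5.79, 2.06 and 3 CPM in crush control animals (log2 change 4.26 ± 0.50, adjusted p = 0.000122), against a change of 7.13 without injury (difference -2.87, adjusted p = 0.0385). This difference did not pass with limma-voom (adjusted p = 0.399), without aliquots 3C and 4C (0.0574) or without crush cKO animal 2 or 3 or crush control animal 2 or 4 (adjusted p = 0.0617 to 0.0789). Slfn5, a schlafen family gene, had 11, 12.4, 14.1 and 12.7 CPM in crush cKO animals, against 1.18, 0.111, 0.0578 and 0.0445 CPM in crush control animals (log2 change 5.10 ± 0.76, adjusted p = 0.00085).

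Ceacam10, a carcinoembryonic antigen family gene, had the largest of these rises (log2 change 5.81 ± 1.31, adjusted p = 0.0132), but with a 19-fold spread between crush cKO animals, at 83.3, 108, 42.2 and 5.62 CPM in crush cKO animals, against 0.31, 0.69, 3.12 and 0.133 CPM in crush control animals. Hpgd, the prostaglandin-inactivating dehydrogenase, had 2.52, 7.5, 51 and 8.17 CPM in crush cKO animals, against 0.279, 0.245, 0.578 and 0.178 CPM in crush control animals. Dgkk, a diacylglycerol kinase, had 15.7, 9.06, 13 and 23.4 CPM in crush cKO animals, against 0.667, 0.467, 0 and 0.0445 CPM in crush control animals (log2 change 5.65 ± 0.89, adjusted p = 0.00119). Ighg2c, an immunoglobulin heavy chain constant region gene, had 68.5, 41.8, 11 and 43.2 CPM in crush cKO animals, against 0.807, 2.76, 1.04 and 0.779 CPM in crush control animals (log2 change 4.94 ± 0.76, adjusted p = 0.00103). Ms4a1, a B cell gene, was at 0 in 3 of 4 crush cKO and 1 of 4 crush control animals. It was at most 0.11 CPM in crush cKO and 0.156 CPM in crush control animals. The cell source of the Ighg2c counts, antibody-secreting cells included, was not tested. Flt1, a VEGF receptor, had 6.33, 10.4, 31.1 and 28.2 CPM in crush cKO animals, against 0.714, 0.912, 1.37 and 1.09 CPM in crush control animals (log2 change 4.22 ± 0.57, adjusted p = 0.000364). Rasd2, a small GTPase gene, rose by 3.95 ± 0.89 and Pgr15l by 4.51 ± 1.15. Hmox1, haem oxygenase, rose by 2.39 ± 0.46 among 21 glutathione and NRF2 genes, of which 2 rose, Hmox1 and the lipid peroxide reductase Gpx4, and 1 fell. That is 9.52% and 4.76% of the list, against 3.38% and 3.21% of all genes. Cdk6 (1.16) and Ccnd2 (1.86) were the 2 of 19 cell cycle genes that rose, and Phlda3 (1.33) and Mdm2 (0.51) the 2 of 24 p53 genes. These are 10.5% and 8.33% of the lists, against 3.38% of all genes. Leaving out an animal ended the calls of Ccnd2 (adjusted p = 0.0508 to 0.0588 without crush cKO animal 1 or crush control animal 2 or 4), Gpx4 (adjusted p = 0.0541 to 0.105 without crush cKO animal 1 or 3 or crush control animal 1, 2, 3 or 4) and Mdm2 (adjusted p = 0.0526 to 0.0629 without crush cKO animal 3 or 4 or crush control animal 3). The same held for Pgr15l (adjusted p = 0.0594 to 0.0768 without crush cKO animal 4 or crush control animal 1, 2 or 3).

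Receptor genes were among the largest falls. H2-M11 had 0.0416, 0.191, 0.148 and 0 CPM in crush cKO animals, against 37.4, 90, 1 and 1.8 CPM in crush control animals, and Hcrtr1, the orexin receptor, 1.19, 0.796, 0.123 and 0.0269 CPM in crush cKO animals, against 11.1, 57, 2.85 and 2 CPM in crush control animals. Both were high in 1 or 2 crush control animals only. Chrnb4, a nicotinic subunit, was high in crush control animal 2 alone, at 0.104, 0.127, 1.97 and 0.457 CPM in crush cKO animals, against 3.12, 44.3, 4.45 and 3.87 CPM in crush control animals. Htr3a, the serotonin-gated channel, had 8.1, 2.61, 3.68 and 0.968 CPM in crush cKO animals, against 63.8, 38.1, 55.9 and 90.2 CPM in crush control animals. Its highest crush cKO value was over 4-fold below its lowest control value (log2 change -4.01 ± 0.95, adjusted p = 0.0174). Hdc, histidine decarboxylase, had 1.5, 0.987, 1.95 and 3.12 CPM in crush cKO animals, against 17.2, 14.8, 21 and 60.3 CPM in crush control animals (log2 change -3.91 ± 0.73, adjusted p = 0.00429). With 1 animal left out, the threshold was no longer met by Chrnb4 (adjusted p = 0.0743 to 0.144 without crush cKO animal 1, 2 or 4 or crush control animal 2), Hcrtr1 (adjusted p = 0.0522 to 0.0712 without crush cKO animal 3 or crush control animal 2) and Htr3a (adjusted p = 0.0536 to 0.0542 without crush cKO animal 2, 3 or 4).

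Mrap2, a melanocortin receptor accessory protein (-3.81), Chp2, a calcineurin-like calcium-binding protein (-3.70), and Clrn1, clarin 1 (-3.49), fell without overlap. Cgnl1, a junctional protein gene, had 2.91, 6.8, 2.47 and 3.63 CPM in crush cKO animals, against 31.7, 46.6, 31.2 and 46.8 CPM in crush control animals (log2 change -3.30 ± 0.52, adjusted p = 0.00114). Ly86, the partner of a Toll-like receptor homologue, had 17.7, 17.8, 11.5 and 5.08 CPM in crush cKO animals, against 69, 133, 391 and 67.6 CPM in crush control animals (log2 change -3.66 ± 0.75, adjusted p = 0.00804), and Fam19a1, a secreted neurokine gene, fell by 3.20 ± 0.62. Among the 5 falls with the smallest p were Fbxo2, a glycoprotein-binding F-box gene (log2 change -1.95 ± 0.20, adjusted p = 5.56e-05), St8sia1, the ganglioside GD3 synthase (log2 change -1.65 ± 0.18, adjusted p = 5.62e-05), and Plcb1, a phospholipase C (log2 change -1.96 ± 0.21, adjusted p = 5.94e-05). Growth factor receptors fell in 5 and rose in 2 of 38 cases (13.2% and 5.26%, against 3.21% and 3.38% of all genes). Falls were 2 without crush cKO animal 3, 3 without crush control animal 2, and rises were 0 without crush cKO animal 4 or crush control animal 1 or 4, 1 without crush cKO animal 2 or crush control animal 2. Ngfr, the p75 neurotrophin receptor, had 97.4, 158, 154 and 163 CPM in crush cKO animals, against 383, 427, 218 and 316 CPM in crush control animals. The groups were apart (log2 change -1.23 ± 0.25, adjusted p = 0.00753). Igf1r fell by 0.75 and Bmpr1b, a BMP receptor, by 2.75 on the log2 scale. Single animals decided the calls of Bmpr1b (adjusted p = 0.0506 to 0.055 without crush cKO animal 2 or 3 or crush control animal 2) and Igf1r (adjusted p = 0.0539 to 0.0571 without crush cKO animal 3 or crush control animal 2).

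S100b, a calcium-binding protein gene listed with Schwann cells and also expressed by neurons, had 83.2, 141, 62.6 and 64.9 CPM in crush cKO animals, against 359, 552, 411 and 430.5 CPM in crush control animals. Crush cKO values were all lower (log2 change -2.32 ± 0.43, adjusted p = 0.00415). The myelin gene Mbp had 41.5 ± 9.16 CPM in crush cKO and 38.4 ± 11.1 CPM in crush control animals and Pmp22 1682 ± 133 CPM in crush cKO and 1771 ± 46.7 CPM in crush control animals, and neither passed (adjusted p = 0.851 and 0.729). Mag, a myelin gene, passed (adjusted p = 0.0455) at very low levels, with 0.687, 0.541, 0.0987 and 0 CPM in crush cKO animals, against 0, 0, 0 and 0 CPM in crush control animals. No fold is given because all 4 crush control animals were at 0. Satellite glial genes did not pass in any of 13 cases, whereas 6.59% of all genes passed. Their sums were 1326 to 1999 CPM in crush cKO and 960.5 to 1572 CPM in crush control animals (Sparc 276 ± 58.7 CPM in crush cKO and 183 ± 45.9 CPM in crush control animals). Large-fibre markers fell in 2 of 15 cases, Fam19a1 and Nefm (13.3%, against 3.21% of all genes). Of the 5 tested neutrophil and lymphocyte genes 2 rose (40%, against 3.38% of all genes), S100a8 and Trbc2. S100a8, a neutrophil calcium-binding protein gene, had 7.07 ± 4.35 CPM in crush cKO and 0.891 ± 0.3 CPM in crush control animals. Trbc2, a T cell receptor constant gene, had 12.9 ± 6.39 CPM in crush cKO and 4.71 ± 1.13 CPM in crush control animals. Their companions S100a9 and Trbc1 were at 0 in all 8 samples. Erythrocyte genes were at most 0.653 CPM summed in crush cKO and 1.87 CPM in crush control animals (Alas2 0.162 against 0.482 CPM, Hba-a1 0.153 against 0.427 CPM). The threshold was missed with 1 animal fewer by Mag (adjusted p = 0.0606 to 0.0963 without crush cKO animal 1, 2 or 3 or crush control animal 1, 2, 3 or 4) and Trbc2 (adjusted p = 0.0545 to 0.1 without crush cKO animal 3 or crush control animal 1, 2 or 4).

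Translation machinery was covered by 3 lists. Cytosolic ribosomal proteins fell in 2 of 79 cases and rose in 0 (median 0.03), ribosome biogenesis genes in 2 of 25 (median -0.10), and translation factors in 1 of 29 (median -0.04), which is 2.53%, 8.0% and 3.45% of each list against 6.59% of all genes that changed. Myc, the growth transcription factor, had 56.2, 62.6, 91.3 and 59.7 CPM in crush cKO animals, against 146, 118, 127 and 112 CPM in crush control animals (log2 change -0.90 ± 0.19, adjusted p = 0.0109), and Polr1c fell by 0.59. Eif3b, a translation initiation factor, fell by 0.42 after crush, with overlap (-0.35, adjusted p = 0.0592, without aliquots 3C and 4C), and its change without injury was 0.94 (difference -1.36, adjusted p = 9.16e-05). Rps2 and Rps18, both on chromosome 17, were the ribosomal genes that fell (-2.96 and -0.94). Ribosomal protein genes have many near-identical copies, and reads that fit several places were not counted, so their levels are uncertain. Of 23 endoplasmic reticulum chaperones Canx rose (log2 change 0.46 ± 0.08, adjusted p = 0.00173) and Hspa5, BiP, fell (log2 change -0.45 ± 0.10, adjusted p = 0.0119). This is 4.35% each way, near the 3.38% and 3.21% of all genes. Among 36 mTORC1 pathway genes Tsc2 fell, and Sesn3 (log2 change 0.78 ± 0.18, adjusted p = 0.0142), Lamtor3 (0.38) and Castor2 (0.64) rose. That is 2.78% and 8.33%, against 3.21% and 3.38% of all genes. Leaving out an animal ended the calls of Castor2 (adjusted p = 0.065 to 0.121 without crush cKO animal 1, 2, 3 or 4 or crush control animal 1, 2 or 4), Eif3b (adjusted p = 0.0663 to 0.0932 without crush cKO animal 1, 2 or 3 or crush control animal 1 or 4) and Lamtor3 (adjusted p = 0.0578 to 0.104 without crush cKO animal 3 or 4 or crush control animal 1, 2 or 3). The same held for Polr1c (adjusted p = 0.0526 to 0.0863 without crush cKO animal 1, 2 or 3 or crush control animal 1, 2, 3 or 4) and Sesn3 (adjusted p = 0.051 without crush control animal 3).

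Genes that changed were unevenly spread along chromosome 17, on which Tsc2 lies. Within 5 Mb of Tsc2 14 of 213 genes changed (6.57%), close to the share on other chromosomes (1177 of 18198, 6.47%). From 10 to 13 Mb beyond Tsc2, a region chosen after its values were seen that holds the MHC, 29 of 110 changed (26.4%): 20 rose and 9 fell. Of these 29, 24 also passed in the same direction without injury. Among 32 tested H2 genes of the chromosome 14 rose, 13 of them without overlap, and 2 fell. Of all genes tested 3.38% rose and 3.21% fell, and 13.2% had no overlap in either direction. The mice were of mixed background, so the Tsc2 genotype and the inherited chromosome 17 segment around the allele cannot be told apart for genes linked to Tsc2, the H2 genes included. B2m, on chromosome 2, lies outside that segment.

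Within 5 Mb, the proton pump subunit Atp6v0c had 4.41, 3.69, 6.12 and 5.59 CPM in crush cKO animals, against 23.4, 27.7, 20.9 and 24.7 CPM in crush control animals (log2 change -2.29 ± 0.18, adjusted p = 3.3e-06). Its near-identical copy Atp6v0c-ps2 on chromosome 6 went the other way, with 71.5, 80.9, 88.3 and 82.5 CPM in crush cKO animals, against 34.1, 36, 29.8 and 35.1 CPM in crush control animals (log2 change 1.26 ± 0.09, adjusted p = 3.24e-06). Reads of such copies can be assigned to either, so both values are uncertain. Rps2 had 1.17, 1, 1.26 and 1.64 CPM in crush cKO animals, against 10.8, 9.41, 8.94 and 10.3 CPM in crush control animals (log2 change -2.96 ± 0.28, adjusted p = 2.35e-05). The serine protease gene Prss41 (1.40), the inositol trisphosphate receptor Itpr3 (1.53), Cuta (0.39), Ndufb10, Tmem8 and the phosphatase Dusp1, also an immediate early gene (0.79), rose. Rnps1 (-0.71) and the enzyme gene Decr2 (-0.47) fell, as did Anks1, Caskin1 and the predicted gene Gm15947. Single animals decided the calls of Anks1 (adjusted p = 0.0517 to 0.0554 without crush cKO animal 2 or 3), Caskin1 (adjusted p = 0.069 to 0.101 without crush cKO animal 1, 3 or 4 or crush control animal 2, 3 or 4) and Dusp1 (adjusted p = 0.0615 to 0.0932 without crush cKO animal 3 or 4 or crush control animal 1, 2 or 4). The same held for Gm15947 (adjusted p = 0.0589 to 0.11 without crush cKO animal 1, 2 or 4 or crush control animal 1, 2, 3 or 4), Ndufb10 (adjusted p = 0.0745 to 0.0859 without crush cKO animal 3 or 4 or crush control animal 1, 3 or 4) and Tmem8 (adjusted p = 0.0515 to 0.0802 without crush cKO animal 1 or 2 or crush control animal 2 or 3).

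**Figure D5:**
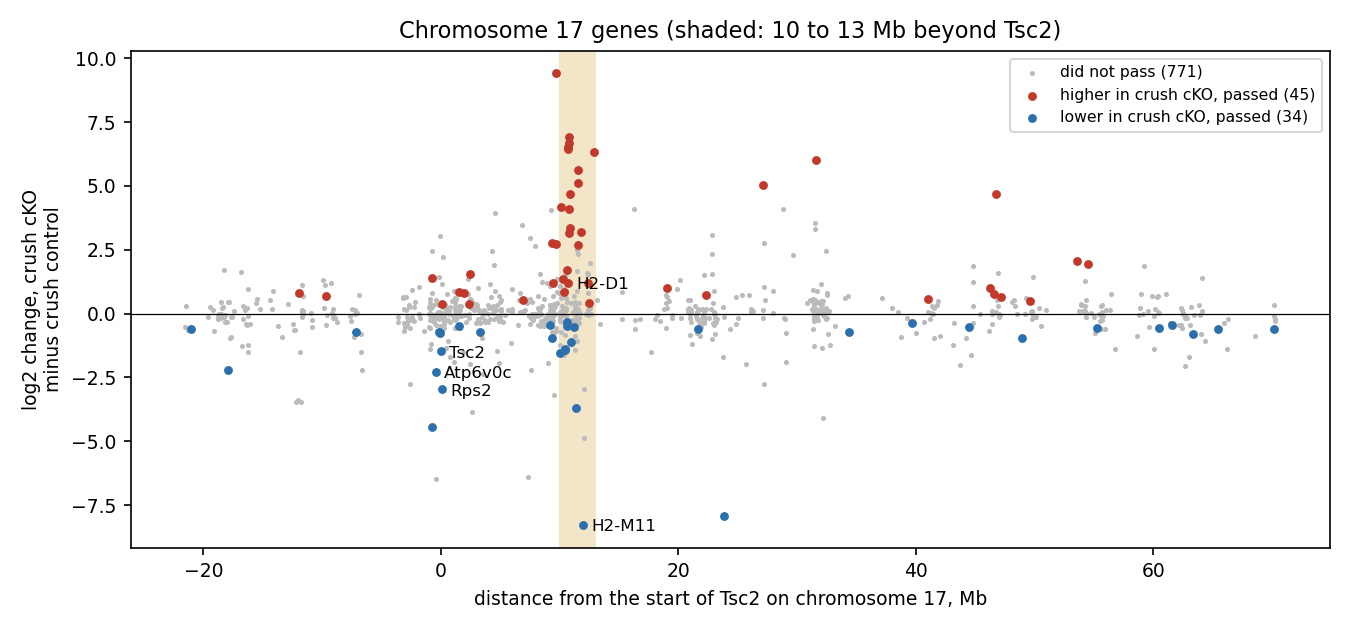
Log2 change (crush cKO minus crush control, vertical axis) of chromosome 17 genes against distance from the start of Tsc2 in Mb (horizontal axis). Red points rose (45), blue points fell (34) and grey points did not pass (771). In the shaded stretch 10 to 13 Mb beyond Tsc2, 20 genes rose and 9 fell.

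The sexes were compared as female minus male deletion effects, with 2 animals of each sex per group. By edgeR 0 of 19048 genes passed, with 1314 at an unadjusted p under 0.05, and limma-voom also gave 0. Among protein-coding genes, those that fell were longer: the median genomic span was 37.9 kb for 566 genes that fell, 21.9 kb for 608 that rose and 25.2 kb for all 14927 tested, and 26.9%, 13.3% and 15.3% spanned over 100 kb.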

How the data were processed

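RNA of about 100 sorted neurons per aliquot was made into unstranded cDNA with the SMARTer Ultra Low kit and sequenced as single reads, per the labels' protocols. The deposited values are whole read counts per gene, made by the authors with HTSeq after STAR alignment to mm10, per the submitters' processing notes, which also name FastQC and DESeq2; the versions were not given in the sources used here. Molecules carried no identifiers. Rows that name no gene were left out: reads that fit several places were 39.2 to 46.1%, reads outside genes 5.92 to 19.4% and ambiguous reads 1.92 to 2.56% of each library. Symbols came from GENCODE M21 for 47224 of 47643 identifiers.

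From these counts, aliquots were summed per animal and edgeR 4.0.16 (R 4.3.3) was run with TMM scaling, filterByExpr and a quasi-likelihood fit over 16 summed samples with a mean per group, which leaves 12 residual degrees of freedom. The contrasts were crush cKO minus crush control, uninjured cKO minus uninjured control, their difference, and female minus male effects. The adjusted p is Benjamini-Hochberg's, and the SE is the log2 change divided by the root of F. The scripts were tested on simulated counts. Alternatives used DESeq2 1.42.0 and limma 3.58.1 (voom), other scaling and filters, blocks, covariates and left-out animals or aliquots.

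The comparison and its gene lists were chosen with earlier results of these data known. The genes named are Tsc2; the 12 largest rises and 12 largest falls among genes that passed, had a mean of at least 5 CPM and did not overlap; the 5 smallest p in each direction; up to 4 members per list that passed or, where none did, the 2 most abundant; and genes within 5 Mb of Tsc2 that passed. Other list members, the genes of the difference and the markers given beside a result were named after their values were seen. Some members of the lists are not reported by name here.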

Additional observations from a re-analysis of the deposited data

Results flagged for a closer look

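In 26 of 274 groups of 4 animals (9.49%) 1 animal stood apart from the others by Dixon's test, where chance gives about 1 in 20. Of these, 11 were in crush cKO and 15 in crush control animals. Among crush cKO animals, the animal apart was animal 3 for Hpgd (51 CPM), Lamtor3 (87.4), Atp5g3 (460), Marcksl1 (27.9), Hba-a1 (0.0247) and Rnps1 (12). It was animal 1 for Idh1 (635 CPM), Ngfr (97.4) and Decr2 (51.6), animal 2 for Spink2 (12.5) and animal 4 for Kif1b (610). Among crush control animals, animal 1 stood apart for Slfn5 (1.18 CPM), Th (55.3), Ly6e (62.5), Dpp7 (23) and Smr2 (25.4), and animal 2 for Ighg2c (2.76), Hcrtr1 (57) and Chrnb4 (44.3). Animal 3 did so for Kcnq5 (10.1 CPM), Plcb1 (18.7), Sst (34.6) and H2-Q4 (0.347), and animal 4 for Hdc (60.3), Gdf15 (0.0667) and Atp5g3 (250).

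For 15 named genes the deletion effect after crush differed from that without injury (edgeR, adjusted p under 0.05). The difference (log2, crush minus uninjured) was above 0 for Spink2 (2.32), Bst2 (2.3) and P2ry1 (2.3). It was below 0 for Anxa3 (-2.87), Flt1 (-3.71), Inhbb (-5.11), Ecel1 (-5.64), Cckbr (-6.9), Slc2a1 (-1.04), Taldo1 (-0.635), Eif3b (-1.36), Ucn (-4.56), Npy (-8.46), Cx3cr1 (-7.09) and Trbc2 (-5.46). The differences of Anxa3, Bst2, Flt1, P2ry1 and Spink2 each missed the threshold in 4 or more of the 8 fits with 1 animal left out, and those of the other 10 genes passed in all 8.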

How the results depend on the processing

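Against 1256 genes that changed, 644 up and 612 down, DESeq2 gave 2024 (1051 up and 973 down) and an adjusted p under 0.01 gave 479 (254 and 225). All 1251 of the changed genes that DESeq2 tested passed there too. Leaving out 1 animal gave 928 to 1054 genes, 465 to 568 up and 412 to 528 down, and 0 genes reversed their sign. The change of Tsc2 ranged between -1.69 and -1.34 over these fits. The count was within 1.5 times the reported one with DESeq2's size factors (1262), no filter (1046), a minimum of 5 CPM (1254), limma-voom (1279), the 8 crush samples alone (1014), sex as covariate (1359), equal-weight aliquots (1142) and, chosen after seeing the data, without aliquots 3C and 4C (1356). Sex differences numbered 0 except without a filter (293, of which 9 failed the filter used); the cause was not tested. Against 15 named genes that differed between the sides, 7 did with limma-voom, 9 at an adjusted p under 0.01, 11 without aliquots 3C and 4C and 11 to 15 with 1 animal left out, of which 11 to 13 were among the 15. With the replicate block 1314 genes changed (660 up and 654 down; Tsc2 -1.51), and 8 named genes lost their call. Same-numbered animals correlated weakly in their deviations (0.0256 to 0.0636), so the numbers are not shown to pair animals; each crush cKO animal correlated best with its own number, and crush control animal 1 did not. Depth limits the genes under 1 CPM, whose values rest on few counts. Within the 150 bases before the start, TCACGTGA was in 1.46% of windows of genes that rose, 0.223% of those that fell and 1.16% of all. Within 2 Mb and 10 Mb of Tsc2, 8.8% and 6.74% of genes changed.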
